A study of Mus musculus with 12 samples.

Results

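Immediate early genes are the first genes a cell transcribes after a growth factor, a stress or fresh medium reaches it, from transcription factors already present and without new protein. Their messages are mostly short-lived. FOS and JUN proteins pair to form AP-1, EGR proteins are zinc-finger factors that bind GC-rich sites, and DUSP1 is a phosphatase that switches the inducing kinases off again. In liver cells the same genes are known to respond to isolation, plating, mitogens and stress. The set described here was 10 named genes, Fos, Fosb, Fosl1, Jun, Junb, Egr1, Egr2, Egr3, Ier2 and Dusp1, taken by gene symbol from the 54532 genes of a deposited expression table. Of these, 9 were among the 24326 genes with read counts and also passed the filter on low counts, so 9 of 10 were tested. The tenth, Egr3, was listed at 0 TPM (transcript abundance scaled to length and library size) in all 12 libraries and has no count row.

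The cells were Hepa 1-6, a mouse hepatoma line, labelled as wild type and as hepatocytes. They were transfected with 100 nM siRNA, transfected again at 48 h (200 nM in all) and harvested at 96 h. The 4 groups of 3 libraries received scrambled control siRNA (siC), siRNA against Esrra, which encodes the orphan nuclear receptor ERRα (siERRa), siRNA against Hcfc1, which encodes a chromatin coregulator (siHCFC1), or both (siERRa+siHCFC1, called combined below); how the combined dose was divided is not given in the labels. Libraries of each group are numbered 1, 2 and 3, and the labels do not say what a number stands for or whether the 3 came from separate cultures. A p-value here therefore sets a difference against the spread of libraries within groups, pooled over the 4 groups and partly shared over genes. That spread may be technical. In bulk RNA, fewer cells expressing a gene and less message per cell cannot be told apart.

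The libraries held 21.4 to 33.2 M counts. Esrra stood at 42.7 to 52.1 in siC, in counts scaled to library size (CPM), against 8.65 to 16.9 in siERRa and 12.5 to 20.5 in the combined group, with no overlap. Hcfc1 stood at 142 to 198 CPM in siC, 66.2 to 126 in siHCFC1 and 88.7 to 131 in the combined group, also with no overlap, but neither difference passed the edgeR test (log2 −0.85, SE 0.26, adjusted p = 0.0668 in siHCFC1 and log2 −0.62, SE 0.26, adjusted p = 0.182 in the combined group). Of 8 hepatocyte markers 7 reached 1 TPM in at least 1 library, with a summed level of 4720 to 10300 TPM, and Serpina1a was at 0 throughout. Most of that sum was Alb (3540 to 7450 TPM) and Afp (992 to 2780 TPM), while Apoa1 (0 to 10.2 TPM) and Ttr (0 to 2.3 TPM) fell to 0. Endothelial markers summed to at most 0.782 TPM, with Cdh5, Kdr and Tek at 0, while 3 of 5 fibroblast or stellate markers (1370 to 3450 TPM), 3 of 5 macrophage and leukocyte markers (109 to 253 TPM) and 4 of 4 cholangiocyte markers (143 to 268 TPM) were detected in this line. Nearly all of the fibroblast or stellate sum was Dcn (1360 to 3440 TPM), with Pdgfra at most 7.72 and Col1a1 at most 2 TPM, and most of the macrophage and leukocyte sum was Cd68 (67.5 to 225 TPM), with Ptprc at most 0.0285.

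The members were set apart by library number far more than by siRNA. In all 4 groups library 3 was the highest of its group for each of the 9 measured members. For 8 of the 9, the 4 libraries numbered 3 lay above all 8 others, a pattern found in 259 of 15965 tested genes (1.62%), and Fosl1 was the exception. The mean difference between library 3 and the others ran from 0.67 to 5.75 on the log2 scale, with a median of 2.57 against −0.01 over all tested genes. Fosb and Fos ranked 1 and 2 of the 15965 genes by this difference, Egr1 ranked 4, Egr2 9 and Jun 13. The members were put together with these results known and are taken as selected on this difference between library numbers, so these values are a description and carry no test. In 0 of 9 members did the 4 libraries numbered 1 lie all above (0.213% of genes) or all below (0.132%) the rest, and the same held for those numbered 2 (4.59% and 4.82%). With library 3 the highest of each group for every member, number 1 or 2 all above could not occur. At shares this small, 0 of 9 for all below is no contrast with all genes.

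**Figure D1:**
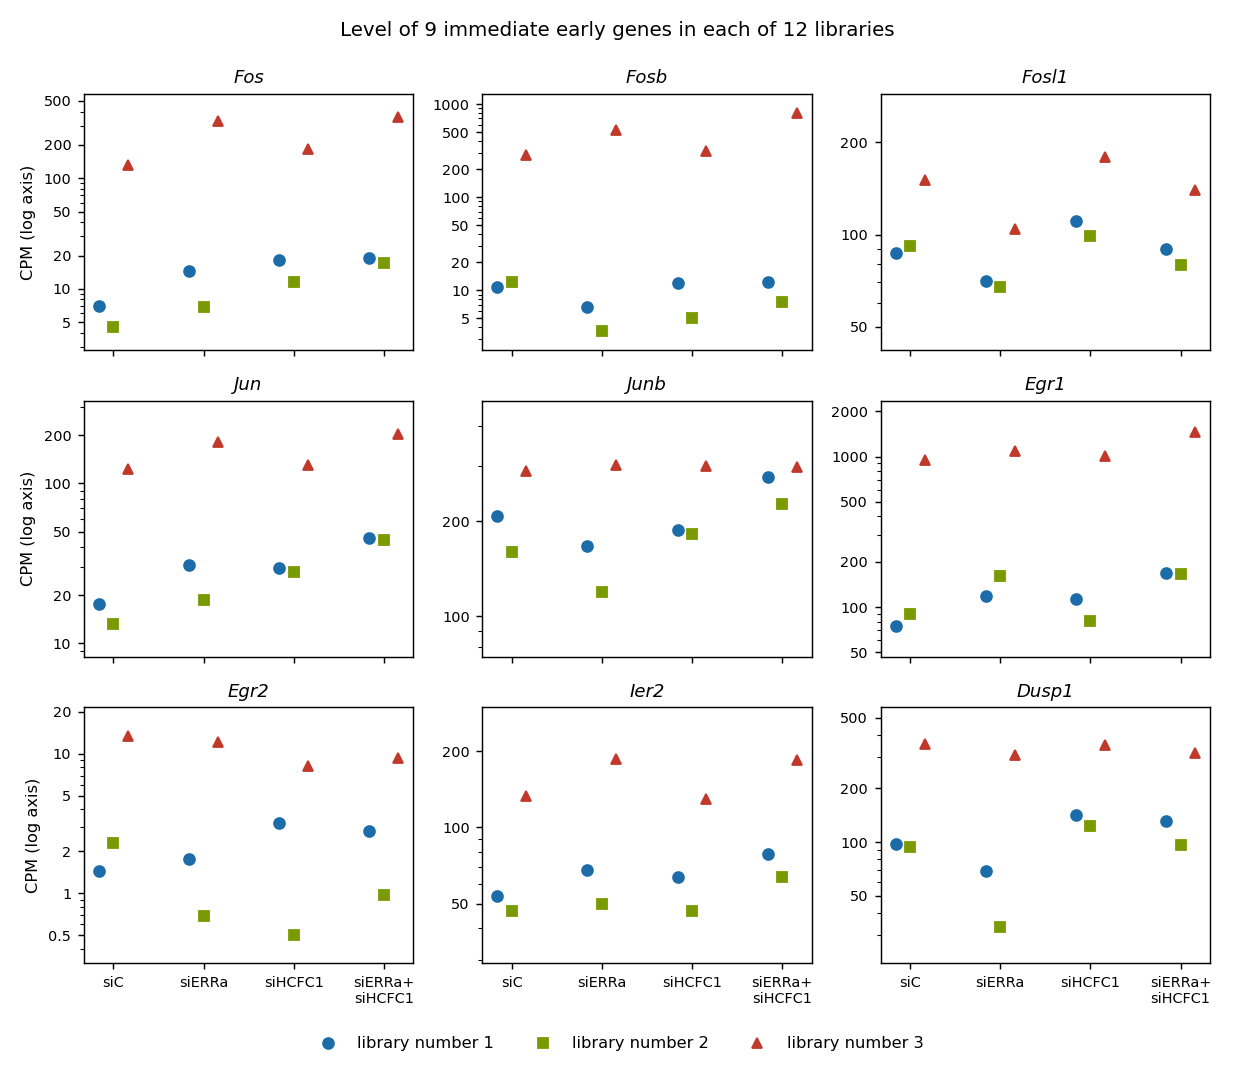
Level of each of the 9 measured members in CPM (log axis, own range per panel) in the 12 libraries, by siRNA group on the horizontal axis and by library number (circle 1, square 2, triangle 3). The triangles stand highest in every group and panel, from 53.6-fold above the rest in geometric mean for Fosb to 1.64-fold for Fosl1 and 1.59-fold for Junb.

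Fos (mm10 position in the deposited tables, as for the members below, chr12:85473890-85477273, plus strand) encodes the founding FOS subunit of AP-1. It stood at 7.05, 4.48 and 132 CPM in siC libraries 1, 2 and 3, at 14.5, 6.79 and 333 in siERRa, at 18, 11.5 and 186 in siHCFC1 and at 19, 17.2 and 359 in the combined group. Library 3 was high in each group and shared no range with libraries 1 and 2, and within each number siC was the lowest group. The geometric mean of library 3 was 21-fold that of the others. Within numbers 1, 2 and 3 the combined group stood at 2.68, 3.79 and 2.73 times siC, siERRa at 2.05, 1.51 and 2.53 times, and siHCFC1 at 2.54, 2.55 and 1.41 times. In edgeR's quasi-likelihood test over the 4 groups, which sets such differences against the spread over the 3 numbers, none passed: the combined log2 change was 1.47 (SE 1.56, adjusted p = 0.675), that of siERRa 1.31 (SE 1.56, adjusted p = 0.894) and that of siHCFC1 0.59 (SE 1.54, adjusted p = 0.89). Leaving library 3 out of 1 of the groups compared turned or enlarged them. Without combined library 3 the first was −1.40, without siERRa library 3 the second was −2.15, without siHCFC1 library 3 the third was −1.67, and without siC library 3 they rose to 4.53, 4.36 and 3.65. Without all 4 libraries numbered 3 they were 1.67 (adjusted p = 0.0773), 0.90 (adjusted p = 0.697) and 1.37 (adjusted p = 0.129).

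Of the sequence around Fos, RefSeq gives the promoter stretch from 73 bases before the start site to 1 base before it (GRCm38.p6, chr12:85473817-85473889, plus strand). It is printed because Fos, of the 6 members whose promoters were searched, was the one with a TATA box (TATAAA, in capitals) just upstream of its RefSeq start. Junb held TATAAA at its RefSeq start. That start lies upstream of the Junb start in the deposited tables, so relative to the deposited start the Junb match is also upstream. Fosl1, Egr1, Egr3 and Ier2 were not searched here. The second line is a 21-base site of its 3′ UTR, from GENCODE M21 transcripts, with the AU-rich nonamer TTATTTATT in capitals, an element known to speed decay of messages.
Fos promoter: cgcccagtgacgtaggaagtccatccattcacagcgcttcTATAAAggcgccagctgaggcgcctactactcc
Fos 3′ UTR site: ttcaatTTATTTATTaagatg

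Fosb (chr7:19302696-19310051, minus strand) encodes another FOS subunit and had the widest gap of the members. It stood at 11, 12.3 and 282 CPM in siC libraries 1, 2 and 3, at 6.56, 3.68 and 524 in siERRa, at 12, 5.01 and 312 in siHCFC1 and at 12.2, 7.5 and 795 in the combined group. All libraries numbered 1 and 2 were at or below 12.3 CPM and all numbered 3 at or above 282, whatever the siRNA. The geometric mean of library 3 was 53.6-fold that of the others, and the log2 gap was narrowest in siC (4.59), wider in siHCFC1 (5.31) and the combined group (6.37), and widest in siERRa (6.72). The direction of the siRNA differences changed with the number. The combined group stood at 1.11, 0.611 and 2.82 times siC within numbers 1, 2 and 3, and siERRa at 0.60, 0.303 and 1.86 times. The log2 change of the combined group was 1.42 (SE 1.94, edgeR adjusted p = 0.763), −0.22 without the libraries numbered 3, −3.37 without combined library 3 and 4.55 without siC library 3.

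The RefSeq promoter stretch of Fosb (GRCm38.p6, chr7:19310047-19310135, minus strand, 90 to 2 bases before the start site) is shown because Fosb was the one of the 6 members searched with a match, in capitals, to the EGR site GCGNGGGCG.
Fosb promoter: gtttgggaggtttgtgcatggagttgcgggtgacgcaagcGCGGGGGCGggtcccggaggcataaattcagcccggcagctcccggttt

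Fosl1 (chr19:5447703-5455945, plus strand) encodes FRA-1, a FOS-family subunit that lacks the transactivation domain of FOS. It stood at 87.2, 92.1 and 151 CPM in siC, at 70.4, 67.3 and 105 in siERRa, at 111, 98.6 and 179 in siHCFC1 and at 89.7, 79.9 and 140 in the combined group. Library 3 of siERRa, at 105 CPM, fell below siHCFC1 library 1, so the numbers overlapped for this member. Within every number siERRa was the lowest group and siHCFC1 the highest. Relative to siC, siERRa stood at 0.808, 0.731 and 0.695 within numbers 1, 2 and 3, and siHCFC1 at 1.27, 1.07 and 1.19. The siERRa change was −0.45 (SE 0.30, edgeR adjusted p = 0.707), −0.15 without siC library 3 and −0.67 without siERRa library 3. In the GENCODE M21 annotation 57.2% of the exon bases of Fosl1 overlap Ccdc85b on the opposite strand, and the library kit does not mark strand, so reads of the pair cannot be told apart and the Fosl1 level is uncertain.

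Jun (chr4:95049034-95052222, minus strand) encodes the AP-1 subunit that can bind DNA as a pair with itself or with FOS proteins. It stood at 17.7, 13.2 and 124 CPM in siC, at 30.9, 18.8 and 182 in siERRa, at 29.7, 28.1 and 131 in siHCFC1 and at 45.7, 44.3 and 205 in the combined group. Library 3 was again above all others, and within each number siC was lowest and the combined group highest. The combined group stood at 2.57, 3.34 and 1.66 times siC within numbers 1, 2 and 3, and at 1.54, 1.58 and 1.56 times siHCFC1. The log2 change of the combined group against siC was 0.94 (SE 0.96, edgeR adjusted p = 0.66). It was −0.20 without combined library 3 and 2.68 without siC library 3. Without the 4 libraries numbered 3 it was 1.56 (SE 0.28, adjusted p = 0.029), and Jun was then the 1 member called in this comparison, where 1.67% of 16140 tested genes were called. Of the exon bases of Jun, 7.28% overlap the antisense gene Junos.

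Junb (chr8:84974484-84978718, minus strand) encodes a JUN-family subunit and had the smallest mean gap between library 3 and the others, 0.67 on the log2 scale. It stood at 208, 160 and 289 CPM in siC, at 167, 119 and 301 in siERRa, at 188, 183 and 299 in siHCFC1 and at 277, 228 and 297 in the combined group. The 4 libraries numbered 3 lay within 289 to 301 CPM, while the other 8 ran from 119 to 277. The combined group stood at 1.33 and 1.42 times siC in libraries 1 and 2 and at 1.03 times in library 3, each 1 library against 1. Its log2 change was 0.29 (SE 0.32, edgeR adjusted p = 0.689). Of the exon bases of Junb, 7.52% overlap Prdx2 on the opposite strand.

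Among the zinc-finger members, Egr1 (chr18:34859823-34864984, plus strand) had the highest level. It stood at 75.0, 89.2 and 945 CPM in siC, at 119, 160 and 1090 in siERRa, at 112, 81.4 and 1010 in siHCFC1 and at 168, 166 and 1466 in the combined group. Libraries numbered 3 shared no range with the others, and the combined group was highest within each number. It stood at 2.24, 1.86 and 1.55 times siC and siERRa at 1.59, 1.79 and 1.15 times, while siHCFC1 was higher in numbers 1 and 3 and lower in number 2. The log2 change of the combined group was 0.70 (SE 1.19, edgeR adjusted p = 0.821). It was −1.15 without combined library 3, 2.88 without siC library 3, and 1.04 (adjusted p = 0.0731) without all 4 libraries numbered 3.

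Egr2 (chr10:67535475-67542188, plus strand), another zinc-finger factor, was much scarcer. It stood at 1.45, 2.29 and 13.5 CPM in siC, at 1.78, 0.684 and 12.1 in siERRa, at 3.21, 0.506 and 8.16 in siHCFC1 and at 2.80, 0.974 and 9.35 in the combined group. Library 3 was highest in each group, from counts of 12 to 72 in libraries 1 and 2 and 238 to 423 in library 3. The siRNA groups took a different order in each number, and siC was highest in numbers 2 and 3.

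The promoter windows reached 250 bases before a start, so sites further upstream, in Fos or any other member, were not searched. Of the 6 members searched, Egr2 was the one whose RefSeq promoter windows held a CArG box, the serum response factor site through which many immediate early genes are known to be induced. Its 4 windows with a box, each around its own start site, held 2 different boxes, and a stretch with each (GRCm38.p6, plus strand, chr10:67537454-67537543 and chr10:67537757-67537846, each 112 to 23 bases before its own start) is shown with the box in capitals.
Egr2 promoter, upstream start: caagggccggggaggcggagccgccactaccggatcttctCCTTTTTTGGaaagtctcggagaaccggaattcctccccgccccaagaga
Egr2 promoter, downstream start: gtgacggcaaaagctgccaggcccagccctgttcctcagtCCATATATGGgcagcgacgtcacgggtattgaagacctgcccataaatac

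Ier2 (chr8:84661331-84662852, minus strand), a nuclear protein induced early by growth factors, stood at 53.6, 46.8 and 133 CPM in siC, at 67.9, 49.7 and 186 in siERRa, at 63.6, 46.6 and 129 in siHCFC1 and at 78.4, 63.5 and 184 in the combined group. Library 3 was above all others, and siERRa and the combined group were above siC within each number. The combined group stood at 1.46, 1.36 and 1.39 times siC, the narrowest spread over the numbers of any member in that comparison. Its log2 change was 0.49 (SE 0.55, edgeR adjusted p = 0.698), −0.13 without combined library 3 and 1.12 without siC library 3.

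Dusp1 (chr17:26505590-26508519, minus strand), the phosphatase that inactivates mitogen-activated protein kinases, stood at 97.1, 93.4 and 356 CPM in siC, at 69.0, 33.4 and 307 in siERRa, at 142, 123 and 351 in siHCFC1 and at 132, 96.3 and 317 in the combined group. Library 3 was above all others, and siERRa was the lowest group within each number. Relative to siC, siERRa stood at 0.711, 0.358 and 0.861 within numbers 1, 2 and 3. The combined group was at 1.91, 2.88 and 1.03 times siERRa.

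The RefSeq promoter stretch of Dusp1 (GRCm38.p6, chr17:26508568-26508655, minus strand, 183 to 96 bases before the start site) holds the cyclic AMP response element TGACGTCA, and its 3′ UTR (GENCODE M21) holds 2 matches of the same AU-rich nonamer as Fos, of which 1 is shown. Both motifs are in capitals.
Dusp1 promoter: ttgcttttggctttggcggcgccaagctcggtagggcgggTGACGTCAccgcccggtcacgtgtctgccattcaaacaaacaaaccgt
Dusp1 3′ UTR site: tggtccTTATTTATTtaacac

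**Figure D2:**
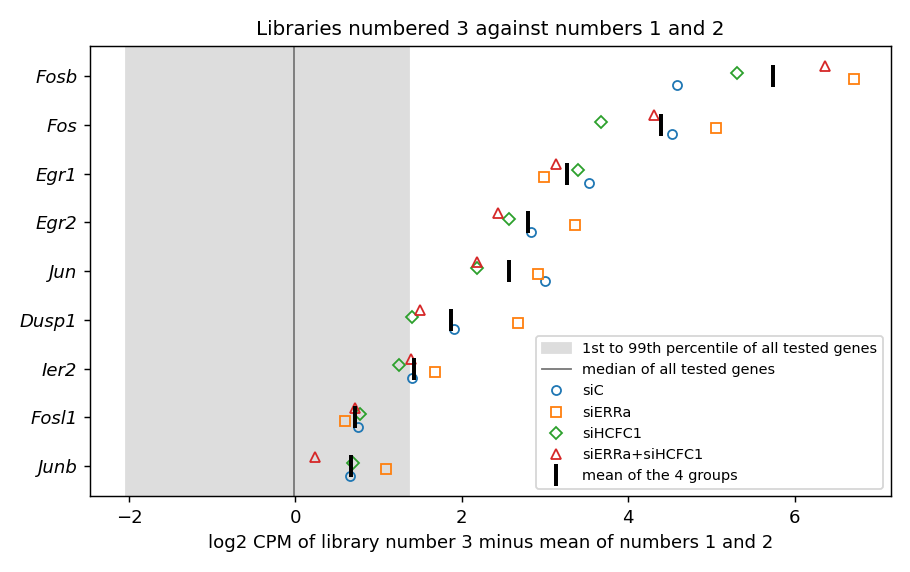
Log2 CPM of library 3 minus the mean of libraries 1 and 2 for each member (vertical axis), with 1 open symbol per siRNA group and a black bar for the mean of the 4 groups. The grey band is the 1st to 99th percentile of all 15965 tested genes (−2.03 to 1.37). The means of Fosb, Fos, Egr1, Egr2, Jun, Dusp1 and Ier2 lie right of the band and those of Fosl1 and Junb inside it.

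Per length of transcript the order of the members differed between the numbers. In reads per kilobase of transcript and per M library counts (RPKM), the 8 libraries numbered 1 and 2 gave Junb 83.1 ± 20.7, Fosl1 51.0 ± 8.44, Ier2 38.6 ± 7.50, Dusp1 36.5 ± 13.1 and Egr1 27.1 ± 8.62 (mean and SD, n = 8), then Jun 8.95 ± 3.74, Fos 5.24 ± 2.42, Fosb 1.41 ± 0.563 and Egr2 0.504 ± 0.292. In the 4 libraries numbered 3, Egr1 led with 252 ± 51.9 RPKM (SD, n = 4), followed by Junb 129 ± 2.44, Dusp1 123 ± 9.09, Fos 107 ± 47.2, Ier2 104 ± 20.6, Fosl1 84.1 ± 18.1, Fosb 76.6 ± 38.0, Jun 50.3 ± 12.4 and Egr2 3.17 ± 0.718. Neighbours from Junb to Jun in the second order differed by less than the larger of their SDs, and so did neighbours from Ier2 to Egr1, and Jun and Fos, in the first.

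The sum of squares of each member's log2 CPM over the 12 libraries was split into parts for library number, siRNA group and remainder. The number part had a median of 87.2% over the 9 members against 27.9% over all tested genes, and the siRNA part a median of 7.24% against 38.1%. Since the members are taken as selected on the number gap, a low siRNA part follows from the high number part. Of what lay outside the number part, siRNA took a median of 80.6% in the members against 62.3% over all genes, from 16.5% in Egr2 and 33.5% in Fosb to 95.4% in Fosl1. The number part was highest for Fosb (96.1%) and Egr1 (94.1%) and lowest for Fosl1 (65.9%) and Junb (64.7%). Fosl1 had the highest siRNA part, 32.5%, and Fosb the lowest, 1.32%. The remainder was at most 2.66% except in Dusp1 (7.64%), Egr2 (10.7%) and Junb (14.0%).

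**Figure D3:**
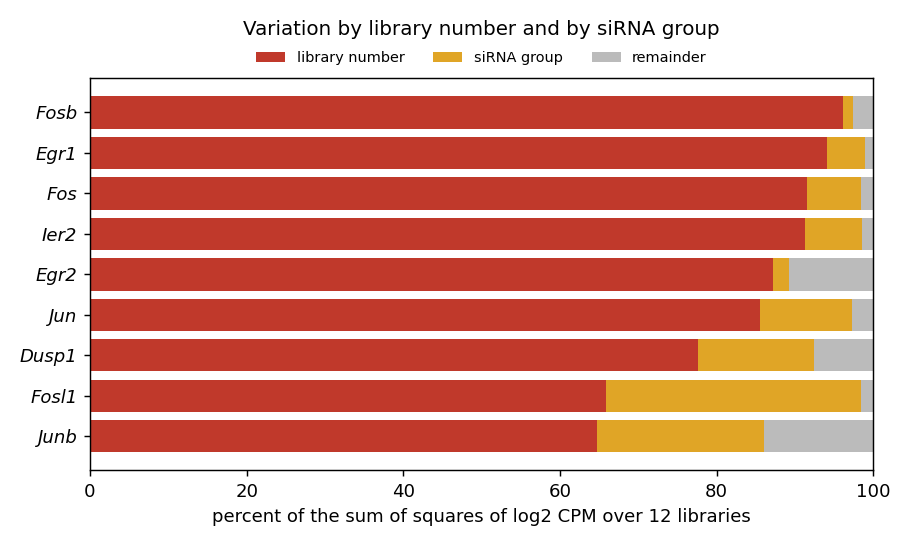
Percent of each member's sum of squares of log2 CPM over 12 libraries that goes with library number (red), siRNA group (yellow) and neither (grey). The red part runs from 64.7% in Junb to 96.1% in Fosb.

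Other measures of the libraries moved with the number as well. The members together took 0.255% to 0.397% of the counts in libraries numbered 3 and 0.0466% to 0.0816% in the others. Genes of the mitochondrial chromosome took 2.37% to 3.59% in libraries numbered 3, 4.56% to 6.72% in those numbered 1 and 6.54% to 14.5% in those numbered 2. Cytosolic ribosomal protein genes took 4.00% to 7.22%, 3.57% to 5.21% and 2.68% to 4.96% in the same order, and depth ran from 23.7 to 33.2, 21.4 to 26.0 and 23.0 to 28.3 M counts. Summed hepatocyte markers stood at 5690 to 8170 TPM in the columns numbered 1 and 7820 to 10300 in those numbered 2, and summed fibroblast or stellate markers, nearly all Dcn, at 1770 to 2880 and 2170 to 3450. The table numbers the remaining TPM columns 4, and there the sums were 4720 to 8120 and 1370 to 2140 TPM. The part of these measures in the members' levels was not tested.

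In the tests between siRNA groups no member passed. The counts were 0 of 9 members in siERRa against siC, where 0.438% of all tested genes were called, in siHCFC1 against siC (6.68%), in the combined group against siC (6.89%), against siERRa (3.24%) and against siHCFC1 (0.00626%), and in the test of whether the combined change departed from both single changes added together (0%). With edgeR 0 members had an unadjusted p below 0.05 in any of the 6. Of all genes, 10.3%, 21%, 21.1%, 17.1%, 7.26% and 2.75% did in that order. The members are taken as selected on the gap between library numbers, which this fit counts as spread within groups. A count of 0 was therefore favoured by that selection and is no contrast with all genes. DESeq2 gave no p to Fos, Fosb and Egr1 in any comparison, and called 0 of the 6 members to which it gave an adjusted p. The members' median log2 change against siC was 0.30 for siERRa, 0.12 for siHCFC1 and 0.49 for the combination, against 0.01, 0.00 and −0.01 over all genes, and their standard errors ran from 0.30 to 1.94. The authors' deposited table gives Fos log2 changes of 1.33, 0.63 and 1.5 in these 3 comparisons. The adjusted p listed with each is 1, which can stand for a missing value, so it is not read as a test result. The comparisons share the siC libraries.

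Within library numbers, which sets aside the gap of library 3, Fos, Jun, Egr1 and Ier2 were higher in siERRa than in siC in all 3 numbers, a pattern of 21.4% of all tested genes, and Fosl1 and Dusp1 were lower in all 3 (23.2%). In siHCFC1, Fos, Jun and Fosl1 were higher than siC in all 3 numbers (25.9% of all genes) and 0 members were lower (28.6%). The siHCFC1 count depended on the scaling: with RLE size factors 5 members were higher in all 3 numbers, and on log2(TPM + 0.5), over the columns that the TPM table numbers 1, 2 and 4, Fos alone was. In the combined group Fos, Jun, Junb, Egr1 and Ier2 were higher in all 3 numbers (26.6%) and 0 were lower (29.2%). Against siERRa the combined group was higher in all 3 numbers for Fos, Fosb, Fosl1, Jun, Egr1 and Dusp1 (24.2%) and lower for 0 members (24.8%). On log2(TPM + 0.5) the count was also 6, but with Junb and Ier2 in place of Fosl1 and Egr1. Against siHCFC1 it was higher for Fos, Fosb, Jun, Egr1 and Ier2 (18.6%) and lower for Fosl1 and Dusp1 (19%). These signs carry no test.

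**Figure D4:**
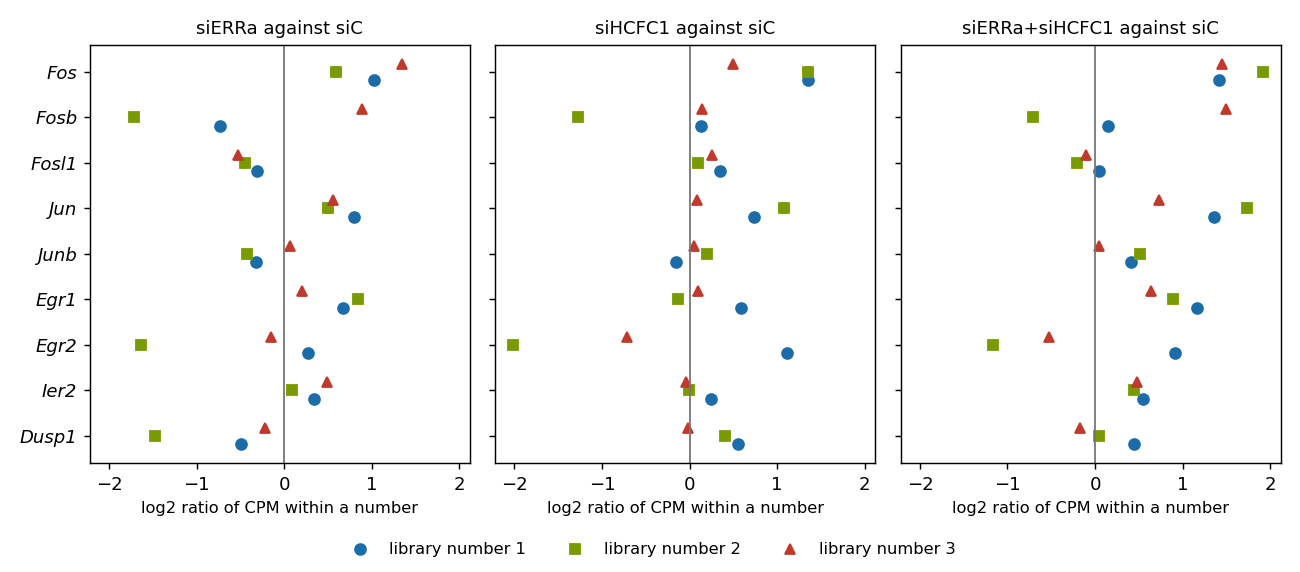
Log2 ratio of CPM of each knockdown to siC within library number 1 (circle), 2 (square) and 3 (triangle) for the 9 members, in 3 panels by comparison. Fos, Jun, Egr1, Junb and Ier2 lie right of 0 at all 3 numbers in the combined group, and Fosb and Egr2 lie on both sides of 0 in all 3 panels.

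Over the 12 libraries the members rose together in library 3, the gap on which they are taken as selected. The 36 pairs of members had Pearson r of log2 CPM from 0.686 (Fosl1 and Ier2) to 0.989 (Fos and Jun), with a median of 0.858. High values of r follow from that gap. Within numbers the siRNA directions differed between members, as given above. Outside the set, the genes most correlated with the members' mean standardised log2 CPM were Btg2, an antiproliferative factor (r = 0.981), Ppp1r15a, which guides a phosphatase to eIF2α (0.98), the cell-cycle inhibitor Cdkn1a (0.965), the mitochondrial import subunit Timm17a (0.962), the translation factor Eif5 (0.952), the survival factor Mcl1 (0.949), the ferritin heavy chain Fth1 (0.942) and the stress-induced factor Atf3 (0.937). Of 15956 other genes, 5 reached r = 0.95. Library 3 stood 4.08-fold above the others in geometric mean for Ppp1r15a and 5.81-fold for Atf3, against 1.35-fold for Mcl1.

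Other genes of the response were read from lists. Of 38 further immediate early genes 37 were tested, and 7 had all 4 libraries numbered 3 above the others, as 1.62% of all tested genes did: Atf3, Klf6, Nr4a1, Zfp36, Btg2, Csrnp1 and Cebpb. Library 3 had the higher mean in 36 of the 37, with a median log2 gap of 0.47, below that of every measured member. By the range of the 3 number means of log2 CPM, the widest were Atf3 (2.57), the synaptic regulator Arc (2.28) and the orphan receptor Nr4a3 (1.76). Arc and Nr4a3 were scarce, at 0 to 3.33 and 0 to 0.885 CPM. By siRNA, Ctgf, a secreted matrix protein, fell by 1.30 on the log2 scale in siERRa (SE 0.25, adjusted p = 0.044) and was higher in the combined group than in siERRa (1.07, SE 0.25, adjusted p = 0.0335). The stress-response gene Gadd45g rose in siHCFC1 (0.80, SE 0.17, adjusted p = 0.0116) and was higher in the combined group than in siERRa (0.86, SE 0.17, adjusted p = 0.014), as was the orphan receptor Nr4a2 (1.96, SE 0.44, adjusted p = 0.0269). No other of the 37 genes passed in this fit.

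Upstream and feedback genes were read the same way. Of all tested genes, 1.62% had all 4 libraries numbered 3 above the others and 1.75% had all 4 below. At such shares a count of 0 in a list this short is no contrast with all genes. Among 16 RAS-MAPK pathway genes 0 had library 3 above all others and 1, the receptor Egfr, had it below (log2 gap −0.58). The 6 tested factors of the serum response factor and ternary complex group and the 6 CREB and ATF factors had 0 in either direction, with Srf at a gap of 0.99 and Atf1 at 0.34. Of 11 tested feedback genes of the ERK pathway, the phosphatases Dusp2 (1.07) and Dusp5 (0.82) lay above and Spred3 (−0.66) below. By siRNA, the ERK inhibitor Spry1 rose in siHCFC1 (0.78, SE 0.20, adjusted p = 0.032), and the kinase Rps6ka1 fell by 0.90 there (SE 0.21, adjusted p = 0.0194).

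Downstream lists came next, beside the same shares of all genes (1.62% above, 1.75% below) and with the same limit on a count of 0. Of 8 tested cytoskeletal targets of SRF and MRTF, 3 had library 3 above all others, Actg1 (log2 gap 0.76), Cnn2 (0.66) and Tpm1 (0.24, named after its value was seen), and the median number part over the 8 was 76.2%. The gap was above 0 in 6 of the 8 and lowest in Flna (−0.59). Of 10 tested AP-1 target genes 0 had library 3 above all others, and the widest gaps were those of Hmox1 (1.10), Mmp13 (0.67) and Mmp9 (−0.84). In that list the protease gene Mmp10 (1.75, SE 0.36, adjusted p = 0.0103) and the urokinase receptor gene Plaur (1.09, SE 0.25, adjusted p = 0.0165) rose in siHCFC1. The EGR corepressor genes Nab1 and Nab2 had gaps of 0.30 and 0.16. Of 6 AU-rich element binding and decay factors Zfp36, itself an immediate early gene, had library 3 above the others (1.12). Of 8 tested heat shock genes 0 did, with Bag3 at 0.67 and Dnajb1 at 0.65. The widest range of number means in that list was that of Hspb1 (1.77), with a gap of −0.48 at 1.24 to 9.44 CPM. The mitochondrial chaperone gene Hspd1 fell by 0.64 in siHCFC1 (SE 0.18, adjusted p = 0.0446) and by 0.82 in the combined group (SE 0.18, adjusted p = 0.0123). All adjusted p-values of these lists are from edgeR over all tested genes, and 0 genes of the remaining lists passed.

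The members shared features of compact genes. Their span on the genome had a median of 4235 bases against 23873.5 over 12518 tested genes with an annotated 3′ UTR, and all 9 spanned at most 10000 bases, as did 24% of those genes. They had a median of 2 exons against 9. The pentamer ATTTA occurred at a median of 2.50 per kilobase of 3′ UTR against 1.18, with none in Ier2. The nonamer TTATTTATT was found in Fos and Dusp1, and in 7.01% of all. In the 10 RefSeq promoter windows of 6 members (250 bases before to 50 after a start, both strands searched), the shares of all 32851 windows with a match were 1.63% for the CArG box, 1.79% for TGACGTCA, 5.55% for GCGNGGGCG and 13.6% for TATAAA, which Junb also held at its RefSeq start. An AP-1 site TGANTCA (7.81% of all windows), an ERR element TCAAGGTCA (0.423%) and the THAP11-ZNF143 submotif (1.98%) had no match in the members' windows. Such matches describe letters and not binding.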

How the data were processed

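The authors' deposited tables, 5 in number, hold raw read counts per gene for the 12 libraries. They were merged on gene ID (377781 shared cells, 0 different, 5451 blanks set to 0). A further deposited table holds TPM, used for Egr3, the markers and an alternative; its last column per group is numbered 4, a number no library has, and was set to a group only; alternatives by number on TPM used its own numbers 1, 2 and 4. The authors' deposited log2 fold changes and adjusted p-values were copied only where named. The submitters' processing notes name HISAT2 2.0.5, featureCounts 1.5.0-p3, DESeq2 1.20.0 and mm10. Normalized and FPKM columns (60) were not used.

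Members, lists and the rule for named genes (the 8 genes most correlated with the members; per list up to 3 called genes per comparison by adjusted p and the 3 widest between numbers; Esrra and Hcfc1) were chosen with earlier results of these data known. The quasi-likelihood test of edgeR 4.0.16 (R 4.3.3) was run on the 15965 of 24326 genes that filterByExpr kept, with TMM scaling, 4 group means and 8 residual degrees of freedom, and Benjamini-Hochberg adjusted p below 0.05 as the threshold. Log2 CPM used a prior count of 2, and RPKM the deposited gene lengths. Member positions equalled GENCODE M21 for 8 of 10. Alternatives were RLE scaling, no filter, DESeq2 1.42.0, limma 3.58.1 on log2(TPM + 0.5), the library number as a block, only the 2 groups compared, and libraries left out. The fit was checked on simulated counts. Their number effects were mostly smaller than the members' gaps, so the check does not reach gaps that wide.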

Additional observations from a re-analysis of the deposited data

How the results depend on the processing

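The library numbers were tried as a replicate block, although the data did not meet the rule for pairing: of 18 same-number pairs of libraries 12 had a correlation of deviations over 0.1, and those of number 1 reached at most 0.0958. As a hint from the data and not the design, 12 of 12 libraries correlated best with one of their own number. With the replicate block edgeR called 4 of 9 members in siERRa against siC (10.2% of all genes), 2 in siHCFC1 (24.9%), 4 in the combined group against siC (25.5%), 4 against siERRa (20%), 2 against siHCFC1 (3.52%) and 0 for the departure (0.144%), and over all genes 1625, 3974, 4067, 3191, 562 and 23 genes in place of 70, 1066, 1100, 518, 1 and 0. Under the block the combined group's log2 changes against siC were 1.59 for Fos, 1.26 for Jun, 0.89 for Egr1 and 0.49 for Ier2, each called in 6 of 6 fits that left out 1 library. Fos was also called in 6 of 6 in siERRa and in siHCFC1 against siC. The remaining member calls held in fewer, from 0 of 6 (Fosl1, combined against siERRa) to 5 of 6 (Egr1, combined against siHCFC1). The members' median change in siERRa turned from 0.30 to −0.21 under the block, with 4 of 9 above 0. Of the 109 tested list genes the block called 26, 25, 34, 33, 8 and 0 in the 6 comparisons, in place of 1, 6, 1, 3, 0 and 0. Of the 37 further immediate early genes it called 5 higher and 9 lower in siERRa, 7 and 0 in siHCFC1, 11 and 1 in the combined group, 15 and 1 against siERRa, 2 and 2 against siHCFC1 and 0 for the departure.

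With no filter on low counts 2 members were called in siERRa, 3 in the combined group against siC and 1 against siHCFC1. That fit's prior degrees of freedom were infinite, against 6.58, so each gene took the common spread. The share of all genes called there was not taken, so these counts have no background to be read against. Without all libraries numbered 3, 1 member (Jun) was called in the combined group against siC and the change of Fosb was −0.22. RLE scaling, DESeq2, TPM with limma and fits of only the 2 groups called 0 members, but DESeq2 gave no p to Fos, Fosb and Egr1.

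Leaving out 1 library gave 0 calls in every comparison without the block. Under the block, a combination chosen after seeing the data, it gave 2 to 4 in siERRa, 1 to 3 in siHCFC1, 4 to 5 in the combined group against siC, 1 to 5 against siERRa, 1 to 2 against siHCFC1 and 0 for the departure. For these fits too the share of all genes called was not taken. The log2 changes with 1 library left out ran from −1.40 to 4.53 for Fos, −3.37 to 4.55 for Fosb, −0.20 to 2.68 for Jun, −1.15 to 2.88 for Egr1 and −0.13 to 1.12 for Ier2 in the combined group against siC, from −2.15 to 4.36 (Fos) and −0.67 to −0.15 (Fosl1) in siERRa, and from −1.67 to 3.65 (Fos) in siHCFC1, since a group then lacks its library 3.

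Members higher in all 3 numbers in siHCFC1 were 3, but 5 with RLE scaling and 1 on log2(TPM + 0.5). That table's columns are numbered 1, 2 and 4, and whether 4 is library 3 is not given in the sources used here. On that scale 1 member was lower in all 3 in siHCFC1 (Junb) and 1 in the combined group (Fosl1), in place of 0; the cause was not tested. The count of 8 members above in library 3 held under RLE scaling and a prior count of 0.5, on TPM the columns numbered 4 lay above the others for 8 members, and the median number part ran from 86.8% to 92.8%. Depth limits Egr2, with 12 counts in its lowest library.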
